A study of Mus musculus with 39 samples.

Results

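Interferon-induced genes and the genes of antigen presentation were followed in the livers of male C57BL/6J mice that had been exposed to aggressors. The exposure serves as a model with some features of post-traumatic stress disorder. The 41 genes were listed by function: 29 interferon-induced genes, comprising antiviral effectors, interferon transcription factors, interferon-induced GTPases and chemokines that bind the receptor CXCR3, and 12 genes of the major histocompatibility complex (MHC) pathways, either class I or class II. A gene was measured where a probe of the array carried one of its RefSeq accessions, and the brightest such probe by mean Cy-5 signal stood for the gene. By that rule 36 of the 41 genes were found, 26 interferon-induced and 10 MHC, among 17016 genes named on the array. Mx1, Mx2, Cxcl11, H2-Eb1 and Nlrc5 were not matched to a probe, and their expression was not analysed here.

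The 39 arrays, 1 per liver, fell into 8 groups. AggE mice, which were 5 to 6 weeks old on purchase and singly housed from 1 week before the regimen to its end and beyond, spent sessions of 6 hrs a day in a mesh cage set inside the home cage of an SJL aggressor, with 3 brief direct contacts per session. Ctrl mice were kept in nested cages and deprived of food on the same schedule, with no aggressor. Regimens ran for 5 or 10 days, and livers were collected after 24 hrs of rest (both regimens), 1.5 wks of rest (5-day regimen) or 4 wks of rest (10-day regimen). Each of the first 3 comparisons set 5 AggE arrays against 4 Ctrl arrays and the last set 6 against 6. AggE and Ctrl mice alike were single-housed, food-restricted during sessions and given a partition test, with its cue of the aggressor encounters, 1 hr before collection. Some labels disagree with each other on the length of the regimen, and arrays were grouped by the source name and description. For example, titles of the AggE arrays and of Ctrl replicate 4 at 1.5 wks bear a 10, where the description gives 5 days. Liver RNA was labeled with Cy-5 and a Universal Mouse Reference RNA with Cy-3 on every array, without a dye swap, so values are log2 liver signal over reference signal, and 0 means equal signal.

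Interferons are secreted proteins that act through cell-surface receptors, kinases of the JAK family and STAT transcription factors. Type I interferons act through a complex that holds STAT2 and IRF9 and binds the interferon-stimulated response element of antiviral genes, whereas interferon-gamma acts through gamma-activated sequences. MHC class I molecules display peptides from inside the cell on nearly every cell type, and class II molecules display peptides taken up from outside, mainly on dendritic cells, macrophages and B cells. In liver, Kupffer cells, dendritic cells and sinusoidal endothelium carry much of this activity, and hepatocytes themselves respond to interferon.

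The 2 sets differed in the letters of their promoters. Promoters of 30 of the 41 genes, H2-Eb1 included, were held in the RefSeq table for GRCm38.p6, each spanning 250 bases before to 50 bases after an annotated start, and were searched on both strands. GAAANNGAAA, a core of the interferon-stimulated response element, was present in 15 of 23 interferon-induced genes (65.2%), in 1 of 7 MHC genes (14.3%) and in 3.99% of all 27025 genes in the table. TTCNNNGAA, the gamma-activated sequence, was present in 7 of the 23 (30.4%), in none of the 7 MHC genes and in 9.55% of all genes. CCAAT, the core of the Y box that class I and class II promoters share, was present in all 7 MHC genes, in 10 of the 23 (43.5%) and in 41.1% of all genes. These matches describe letters and not bound sites, and matches to GAAANNGAAA can overlap each other. Elements that depart from these letters were not counted, so a gene without a match may still hold one. The promoters below show an antiviral gene with overlapping matches (Isg15) and the antiviral effector of the list with the brightest probe (Bst2). They also show a gene lower in AggE at 4 wks whose window holds none of the letters (Ifi44). The last are the MHC gene with a match to GAAANNGAAA (B2m) and a class I heavy chain without that match (H2-K1). Capitals mark GAAANNGAAA or CCAAT on either strand, so CCAAT may be read as ATTGG. The windows are chr4:156200769-156200968 (minus strand), chr8:71537423-71537622 (minus strand), chr3:151749861-151750060 (minus strand), chr2:122147537-122147736 (plus strand) and chr17:34000298-34000497 (minus strand), each printed 5′ to 3′ and each lying across the annotated start.
Isg15: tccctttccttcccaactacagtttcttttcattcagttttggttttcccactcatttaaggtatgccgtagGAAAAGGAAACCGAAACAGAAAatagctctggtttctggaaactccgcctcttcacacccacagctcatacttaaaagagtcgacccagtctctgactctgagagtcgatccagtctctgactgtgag
Bst2: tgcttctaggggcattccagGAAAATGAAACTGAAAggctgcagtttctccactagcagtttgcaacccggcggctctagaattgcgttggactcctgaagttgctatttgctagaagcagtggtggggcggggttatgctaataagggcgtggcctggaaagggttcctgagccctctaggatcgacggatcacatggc
Ifi44: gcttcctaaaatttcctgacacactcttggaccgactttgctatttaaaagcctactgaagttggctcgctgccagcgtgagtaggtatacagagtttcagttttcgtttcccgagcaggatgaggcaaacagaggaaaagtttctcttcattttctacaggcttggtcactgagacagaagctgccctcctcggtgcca
B2m: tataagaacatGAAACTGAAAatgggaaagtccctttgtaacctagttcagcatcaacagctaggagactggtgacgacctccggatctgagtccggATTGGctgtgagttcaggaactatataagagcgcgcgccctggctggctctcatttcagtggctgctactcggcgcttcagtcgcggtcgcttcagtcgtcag
H2-K1: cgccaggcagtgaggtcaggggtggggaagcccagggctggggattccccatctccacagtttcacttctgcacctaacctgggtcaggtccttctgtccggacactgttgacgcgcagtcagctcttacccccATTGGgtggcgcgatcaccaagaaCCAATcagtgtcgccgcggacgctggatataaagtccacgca

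In Isg15, which encodes a ubiquitin-like modifier of antiviral proteins, GAAANNGAAA was found at 3 overlapping positions. In Bst2, which encodes the membrane tether of budding viruses, it was found at 2 overlapping positions, and a gamma-activated sequence, which begins in lower-case letters and ends in capitals, overlapped the first. B2m had both kinds of capitals, GAAANNGAAA first and the letters of the Y box nearer the start.

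Detection of the 36 genes varied between groups and scan days. A probe counted as detected where the scanner software called its Cy-5 signal well above background. Detected on all 39 arrays were 10 genes, the interferon-induced Ddx58, Bst2, Irf1, Stat2 and Iigp1 and the MHC genes B2m, H2-K1, H2-D1, Tapbp and Cd74. Another 9 were detected on 30 or more arrays and 9 on fewer than 20, with Ifit2 on 1 array, Tap1 on 4, Ifi44 on 12, Cxcl10 on 14, Tgtp1 and Cxcl9 on 16, Ifit1 and Ciita on 17 and Oas2 on 18. At 4 wks, on arrays all scanned on the second of 2 days, 32 to 35 of the 36 genes were detected per array. On the first day, the number with 24 hrs of rest was 20 to 24 in Ctrl and 14 to 26 in AggE after the 5-day regimen, and 24 to 31 in Ctrl and 26 to 32 in AggE after the 10-day regimen. At 1.5 wks it was 11 to 20 on the 7 arrays scanned on the first day, and 29 in the Ctrl liver and 33 in the AggE liver scanned on the second. The share of all RefSeq probes detected moved alike, from 20 to 31.9% of probes on the first-day arrays at 1.5 wks, 50.6 and 57.5% on the second-day arrays, and 51.1 to 79.6% at 4 wks. A gene detected in neither group of a comparison is given no fold. One detected in 1 group only is given a bound, which sets the mean Cy-5 signal of that group against the lowest signal called detected, or the probe's own if higher, on the arrays of the other group, and is left out where it exceeds the fold of the mean ratios. The bound concerns group means and not the spread between livers. An offset added to both signals pulls the ratios of dim probes towards 0.

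**Figure D1:**
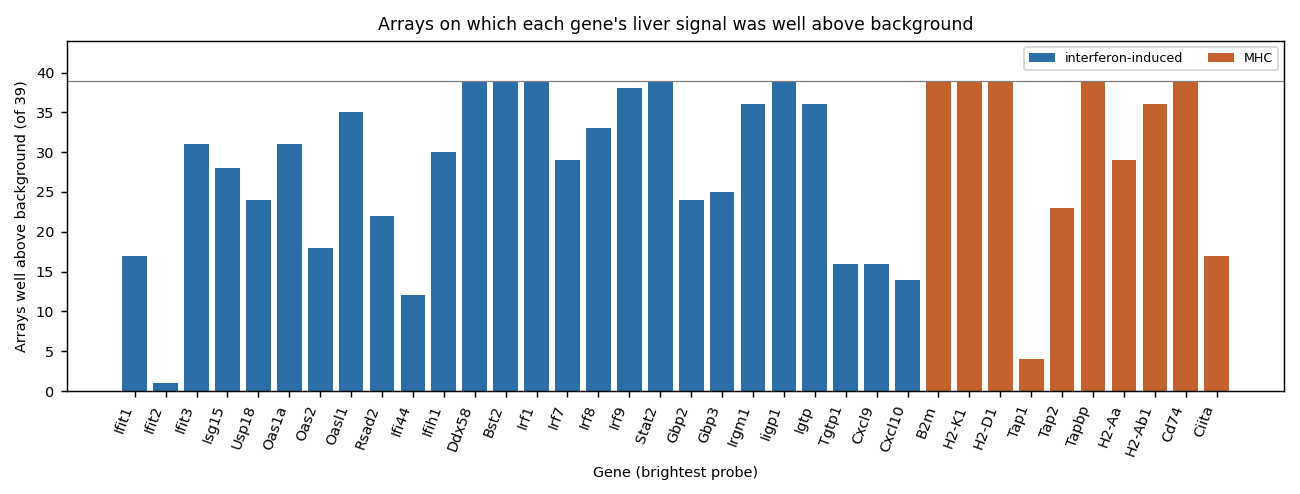
Number of arrays, of 39, on which the brightest probe of each gene was called well above background in the Cy-5 (liver) channel, with interferon-induced genes in blue and MHC genes in orange. The line marks all 39 arrays, reached by 10 genes, while Ifit2 was detected on 1 array and Tap1 on 4.

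Slides and groups overlapped little. The arrays came from 11 slides scanned on 2 days, and at 24 hrs no slide held both Ctrl and AggE arrays, so slide and exposure cannot be told apart there. At 1.5 wks 1 slide held 1 AggE and 3 Ctrl arrays, and at 4 wks another slide held 1 AggE and 3 Ctrl arrays. Within the 4-wk Ctrl group, values on its 2 slides did not overlap for 9 of the 36 genes (25%) and for 23% of all probes. The liver identity was clear, since Alb, Apoa1, Cyp2e1, Hnf4a and Ttr, the hepatocyte markers, were detected on all 39 arrays. RNA came from whole liver, where fewer cells of a type and less RNA per cell cannot be told apart.

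Across the 4 comparisons of AggE with Ctrl, 2 genes passed an adjusted p of 0.05 in limma, Ifi44 and Oas2, both lower in AggE livers at 4 wks post-10-day stressor, and neither passed with slide as a random block. At 24 hrs post-5-day stressor 0 of 36 genes passed, beside 3.1% of 25903 probes, and 5 passed an unadjusted p of 0.05, beside 17.3%. At 24 hrs post-10-day stressor 0 passed the adjusted p and 0 the unadjusted p, beside 0.0734% and 2.83% of probes. At 1.5 wks 0 passed, beside 0%, and 1 gene passed unadjusted, beside 2.43%. At 4 wks the 2 genes stood beside 3.51% of probes in either direction and 2.25% lower in AggE, and 14 genes passed unadjusted, beside 20.6%. These shares of genes lay near or below the background at 24 hrs, and at 4 wks the 2 of 36 was close to the share of all probes. Among the 3956 probes detected on all arrays, which are brighter, 1394 passed the unadjusted p at 4 wks.

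No gene reached a 2-fold difference with an unadjusted p of 0.05 in any of the 4 comparisons, where 0.232%, 0.131%, 0.0309% and 0.235% of probes did. In none of the 36 genes did the AggE values lie wholly outside the Ctrl values in any comparison, where 7.57%, 1.71%, 0.961% and 1.55% of probes had ranges that did not overlap.

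**Figure D2:**
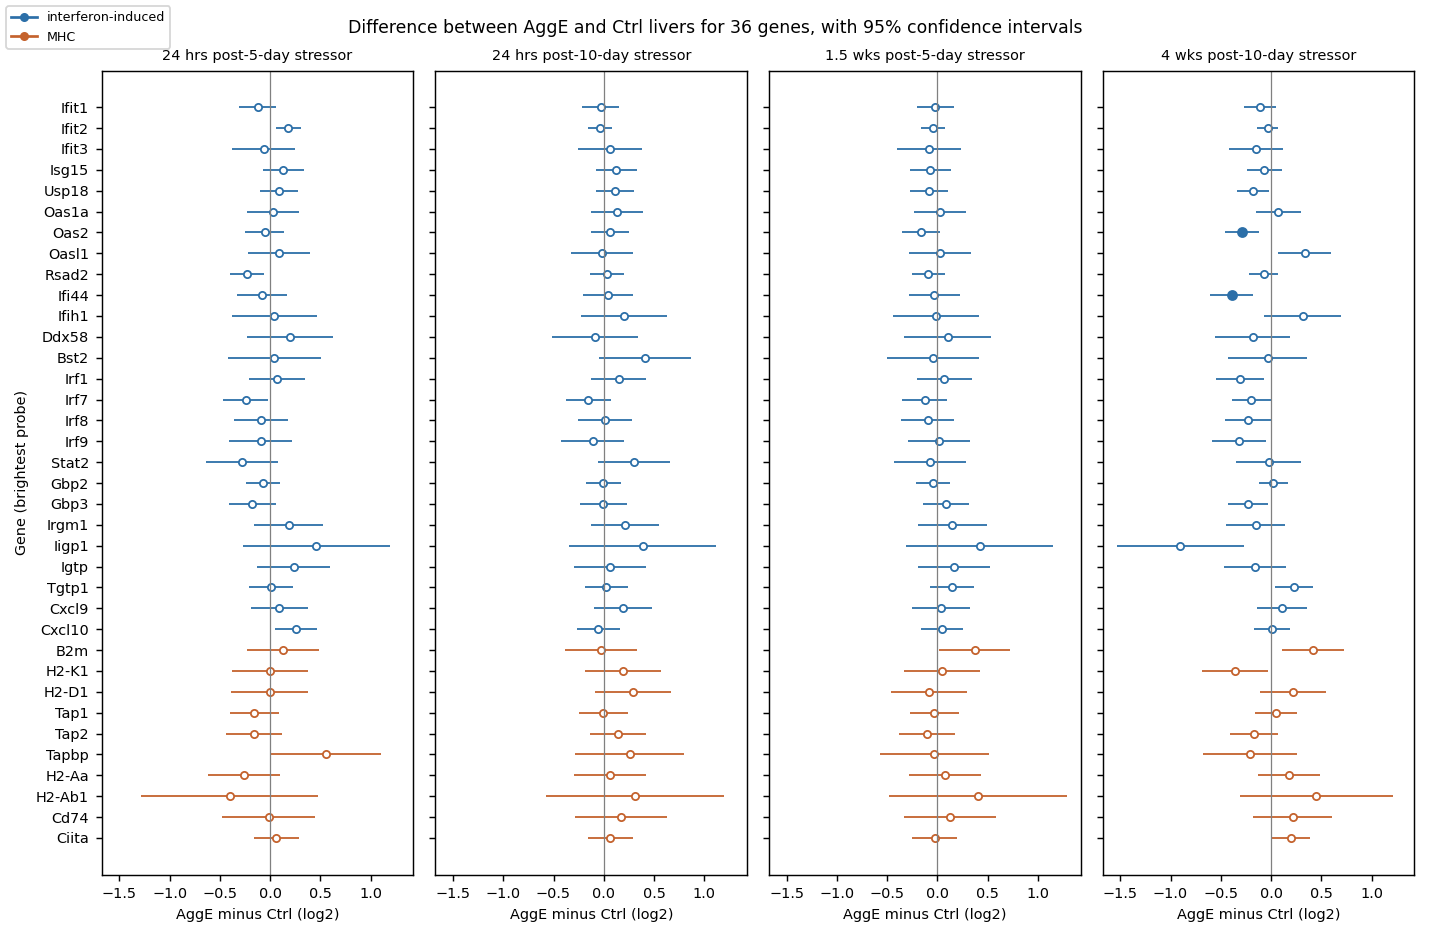
Difference between AggE and Ctrl means (log2, points) with 95% confidence intervals (lines) for 36 genes in 4 comparisons, interferon-induced in blue and MHC in orange. Filled points mark an adjusted p of 0.05 or less, reached by Ifi44 and Oas2 at 4 wks, and most other intervals include 0.

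Among the antiviral effectors, Ifi44, which encodes an interferon-induced protein of the cytoplasm, was lower in AggE livers at 4 wks. The log2 ratios of the 6 Ctrl livers ran from -1.16 through a median of -0.95 to -0.72, and those of the 6 AggE livers from -1.60 through -1.29 to -1.15. Only the lowest Ctrl liver and the highest AggE liver met, and the probe was detected in 6 of 6 Ctrl and 5 of 6 AggE livers. The difference was -0.39 on the log2 scale (SE 0.11, 95% confidence interval -0.61 to -0.18, limma adjusted p = 0.0357). At 24 hrs Ifi44 was detected on no array, with ratios of -0.98 to -0.69 in Ctrl and -1.34 to -0.75 in AggE after the 5-day regimen, and -0.98 to -0.79 and -1.05 to -0.49 after the 10-day regimen. At 1.5 wks the Ctrl ratios were -0.28, -0.53, -0.49 and -0.80 and the AggE ratios were -0.60, -0.83, -0.64, -0.40 and -0.31, which overlapped, and the probe was detected on 1 array.

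Oas2, which makes the oligoadenylates that switch on RNase L, was also lower at 4 wks. Ctrl ratios ran from -0.43 through -0.27 to -0.11 and AggE ratios from -1.08 through -0.44 to -0.40. The AggE liver at -1.08 stood well below the other 5, which overlapped Ctrl only at its lowest value. The difference was -0.29 (SE 0.08, limma adjusted p = 0.0414), and -0.18 without that liver (adjusted p = 0.0553). A second, dimmer Oas2 probe was detected on 1 of the 39 arrays and is given no fold. At 24 hrs the 5-day ratios were -0.20, -0.25, -0.29 and -0.18 in Ctrl and -0.32, -0.39, -0.17, -0.37 and -0.17 in AggE, with detection on no array. The 10-day ratios were -0.28, -0.42, -0.23 and -0.23 in Ctrl and -0.26, -0.03, -0.21, -0.35 and -0.28 in AggE. At 1.5 wks they were -0.07, 0.03, -0.13 and -0.25 in Ctrl and -0.18, -0.31, -0.22, -0.34 and -0.32 in AggE. Ranges overlapped in all of these, and the differences where the probe was detected were 0.06 and -0.17.

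Both calls at 4 wks depended on single livers, on the shared slides and on the processing. With slide as a random block neither passed, at -0.40 for Ifi44 (adjusted p = 0.133) and -0.45 for Oas2 (adjusted p = 0.0508). With slide as a fixed block Ifi44 did not pass (-0.39, adjusted p = 0.213) and Oas2 did (-0.74). Ifi44 no longer passed without AggE replicate 2 or 3 or Ctrl replicate 1, 3, 5 or 6 (-0.40 to -0.34, adjusted p 0.0507 to 0.122), and Oas2 no longer passed without AggE replicate 1, 2 or 3 or Ctrl replicate 1, 3, 4 or 5 (-0.32 to -0.18, adjusted p 0.0546 to 0.0963). Without normalization between arrays the Ifi44 difference turned to 0.11. On the slide that held 1 AggE and 3 Ctrl livers the difference was -0.47 for Ifi44 and -0.84 for Oas2, the latter resting on the AggE liver at -1.08.

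**Figure D3:**
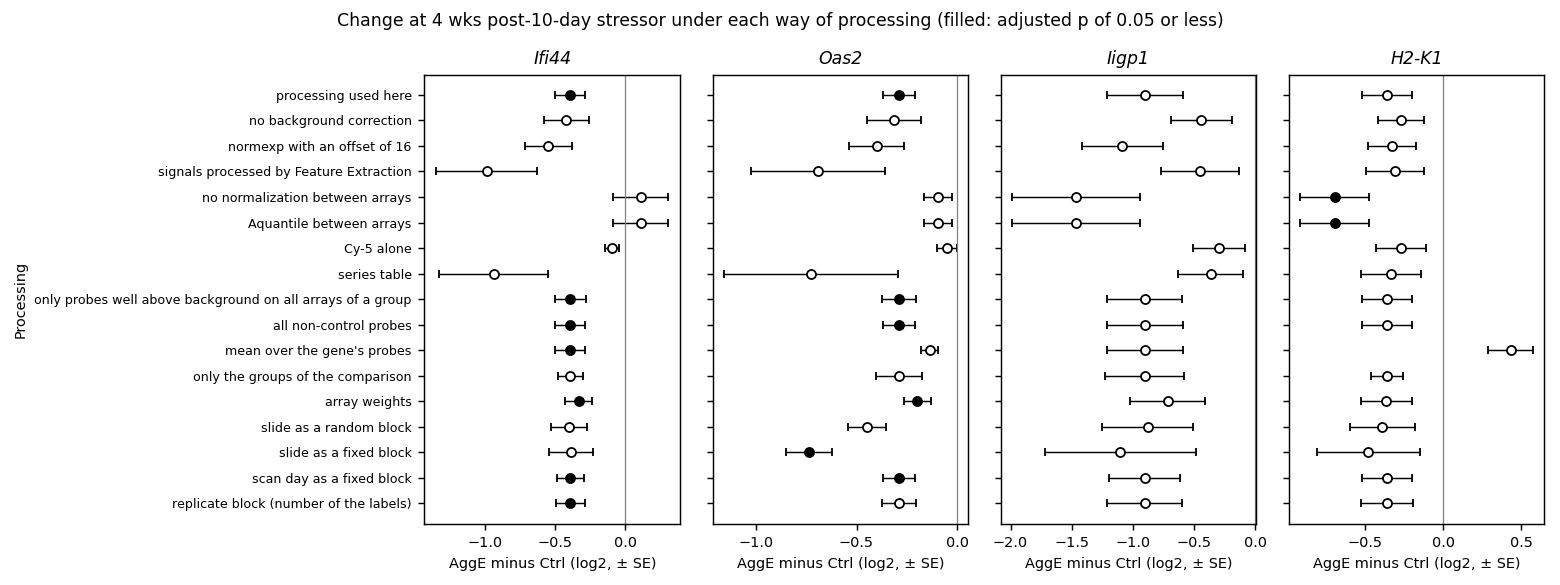
AggE minus Ctrl at 4 wks (log2, points, with SE bars) for Ifi44, Oas2, Iigp1 and H2-K1 under the processing used here and 16 alternatives, with filled points for an adjusted p of 0.05 or less. Ifi44 ranged from -0.99 to 0.11, Oas2 and Iigp1 stayed below 0, and H2-K1 turned to 0.43 when its probes were averaged.

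Bst2 had the brightest probe of the 13 antiviral effectors measured and was detected on all arrays. Its ratios at 24 hrs post-10-day stressor were 0.77, 0.17, 0.17 and -0.10 in Ctrl and 0.11, 1.11, 1.01, 0.94 and 0.15 in AggE, so 3 AggE livers lay above all Ctrl livers and 2 lay among them. The difference of 0.41 had an interval of -0.05 to 0.87. After the 5-day regimen at 24 hrs the ratios were 0.97, 0.77, 1.15 and 0.65 in Ctrl and 0.74, 1.04, 1.20, 0.63 and 1.03 in AggE, and the difference of 0.04 (-0.42 to 0.50) allowed changes of either sign. At 1.5 wks they were 1.10, 1.62, 0.36 and 0.66 against 1.08, 0.69, 0.66, 1.17 and 0.84. At 4 wks Ctrl ran from 0.11 through 0.70 to 1.28 and AggE from 0.48 through 0.62 to 0.88, inside the Ctrl range, with a difference of -0.04 (-0.43 to 0.36).

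The other antiviral genes differed little and in mixed directions. Ifit2, whose product binds foreign RNA, had the smallest adjusted p of the 36 at 24 hrs post-5-day stressor (0.0903), but was detected in neither group and has no fold. Rsad2, which encodes viperin, was detected on 1 Ctrl array and no AggE array there. Its group means gave a bound of 1.12-fold higher in Ctrl (interval of the difference -0.40 to -0.06, limma adjusted p = 0.124). Its further probes were detected in neither group. Usp18, which removes ISG15 from proteins, was detected on 1 AggE array and no Ctrl array, with mean ratios of -0.93 and -1.02 (adjusted p = 0.717). The effectors Ifit3, Isg15 and Oas1a differed by -0.07, 0.13 and 0.03 at 24 hrs after the 5-day regimen and by 0.06, 0.13 and 0.13 after the 10-day regimen, and no interval excluded 0. Ifit1, another RNA-binding effector, was detected in neither group after the 5-day regimen and differed by -0.03 after the 10-day regimen. The RNA sensors Ddx58 (RIG-I) and Ifih1 (MDA5) differed by 0.20 and 0.04 after the 5-day and by -0.09 and 0.20 after the 10-day regimen. At 1.5 wks 10 of 13 antiviral genes were lower in AggE (median -0.04), and at 4 wks 10 of 13 were lower (median -0.07), where Oasl1, a relative of the oligoadenylate synthetases, stood at 0.33 (adjusted p = 0.135) and Usp18 at -0.18 (adjusted p = 0.181). Probes for Oas1a, Ifit3 and Tgtp1 may also take up RNA of their near-identical relatives.

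**Figure D4:**
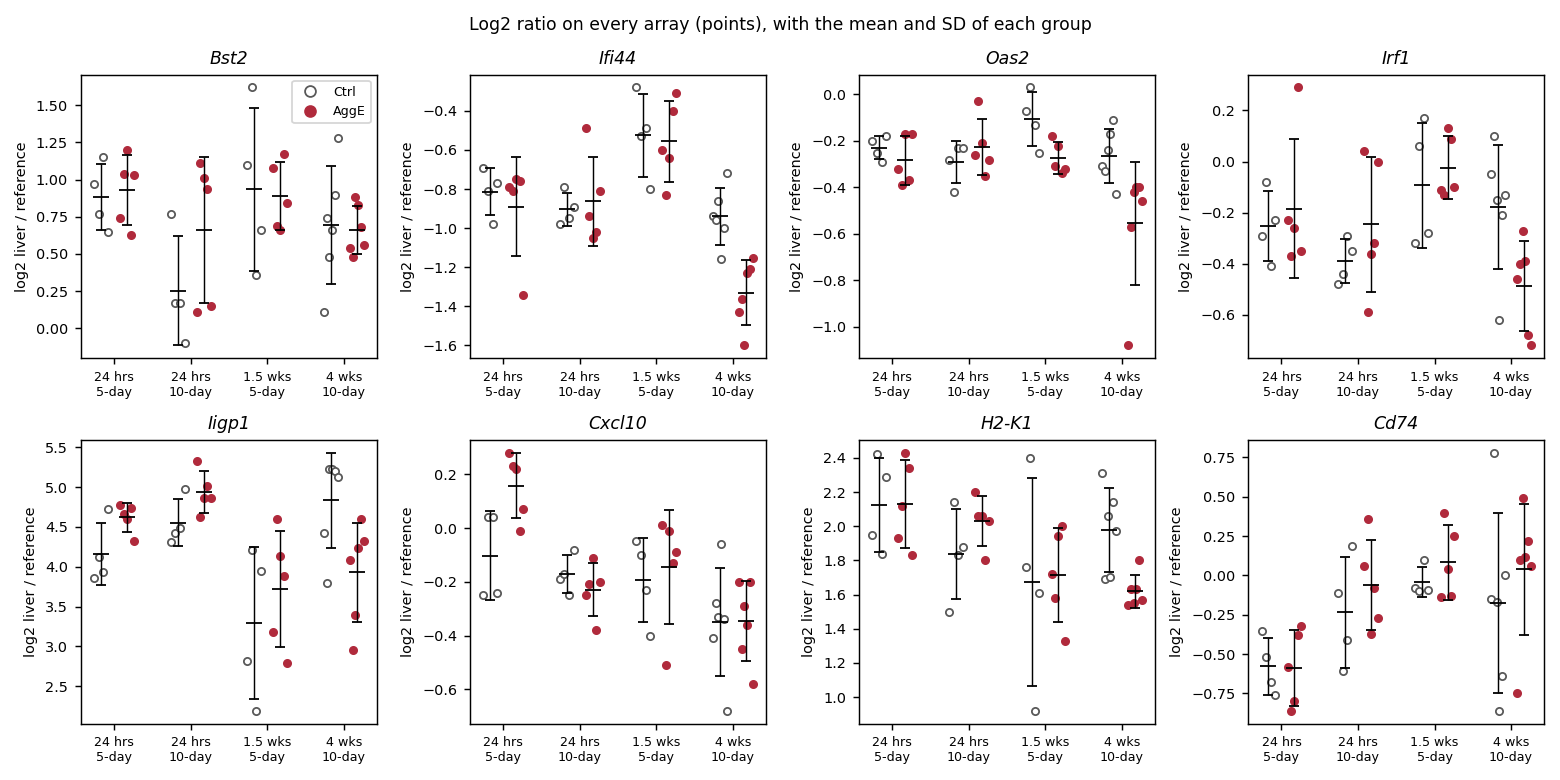
Log2 of liver over reference signal on every array (points; Ctrl open, AggE filled) with group means and SD (bars) for 8 genes at 4 times. The AggE livers lie low at 4 wks for Ifi44 and Oas2, with 1 Oas2 value at -1.08, and Iigp1 is above 2 on every array.

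On their brightest probes all 5 interferon transcription factors were lower in AggE livers at 4 wks, and none passed the adjusted p. Irf1, a factor that interferon-gamma itself induces, ran from -0.62 through -0.14 to 0.10 in Ctrl and from -0.72 through -0.43 to -0.27 in AggE. All 6 AggE livers lay below the Ctrl median, but the ranges overlapped, and the difference was -0.31 (interval -0.55 to -0.07, adjusted p = 0.125). Irf9, the DNA-binding subunit of the type I interferon complex, differed by -0.32 (adjusted p = 0.168), Irf8, a factor of macrophage and dendritic cell lineages, by -0.23 (0.240), Irf7, the amplifier of type I interferon production, by -0.20 (0.236) and Stat2, the partner of Irf9 in that complex, by -0.02 (0.957, with the value of 1 AggE liver missing). Further, dimmer probes in the same comparison stood at 0.19 for Irf8 and 0.02 for Irf9, the opposite direction, and at -0.09 for Irf1. The further Irf8 probe was detected in 6 AggE and 5 Ctrl livers (limma adjusted p = 0.164), so the direction of Irf8 depended on the probe. The further Irf9 probe was detected on 3 of the 12 arrays and the further Irf1 probe on 6. Over all probes 54% were higher in this comparison, and over the probes detected on all arrays 36.1% were.

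At the earlier times these factors went either way. Irf1 read -0.29, -0.08, -0.41 and -0.23 in Ctrl and -0.23, -0.37, -0.26, 0.29 and -0.35 in AggE at 24 hrs after the 5-day regimen, and a single AggE liver stood above the rest. After the 10-day regimen it was -0.48, -0.44, -0.29 and -0.35 in Ctrl and 0.04, -0.59, -0.36, -0.32 and 0.00 in AggE, with both the highest and the lowest values in AggE. At 1.5 wks it was -0.32, 0.06, 0.17 and -0.28 in Ctrl and -0.11, -0.13, 0.13, 0.09 and -0.10 in AggE. The 3 differences were 0.07, 0.15 and 0.07. Irf7 was detected on no AggE array and 2 Ctrl arrays at 24 hrs post-5-day stressor, with mean ratios of -0.42 in AggE and -0.17 in Ctrl (adjusted p = 0.235). Stat2 went from -0.28 after the 5-day to 0.30 after the 10-day regimen at 24 hrs, with intervals that both included 0.

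Iigp1, an immunity-related GTPase that attacks the vacuoles of intracellular parasites, had the widest movement of the 36 genes. At 4 wks Ctrl ran from 3.79 through 5.17 to 5.23 and AggE from 2.95 through 4.16 to 4.60. The AggE livers were lower on the whole but overlapped 2 Ctrl livers, and the difference was -0.90 (SE 0.31, interval -1.53 to -0.27, adjusted p = 0.0890). Leaving out single livers gave -1.11 to -0.71, and the difference passed only without Ctrl replicate 2 (-1.11, limma adjusted p = 0.0247). Over 16 processing alternatives it ran from -1.46 to -0.30 and passed in none (adjusted p 0.0582 to 0.879). At 24 hrs post-5-day stressor the ratios were 3.86, 4.12, 3.94 and 4.72 in Ctrl and 4.78, 4.66, 4.60, 4.74 and 4.32 in AggE, where 1 Ctrl liver lay among the AggE livers. After the 10-day regimen they were 4.31, 4.43, 4.49 and 4.98 in Ctrl and 5.33, 4.62, 4.86, 5.02 and 4.86 in AggE, with the same kind of overlap. At 1.5 wks they were 2.82, 4.21, 2.19 and 3.95 in Ctrl and 3.18, 4.60, 4.13, 3.88 and 2.79 in AggE, spread widely in both. The 3 differences were 0.46, 0.39 and 0.42, with intervals of -0.27 to 1.19, -0.35 to 1.12 and -0.31 to 1.15 (adjusted p 0.581, 1 and 1). Their direction depended on the processing: without normalization between arrays the differences at 24 hrs were -0.27 and -0.30, and with slide as a fixed block that at 1.5 wks was -0.29. With the signals processed by Feature Extraction the first was 1.52 and passed (adjusted p = 0.0247).

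The other 5 GTPases did not pass in any comparison. Irgm1, a regulator of autophagy, and Igtp, another immunity-related GTPase, were at 0.18 and 0.23 at 24 hrs post-5-day stressor and at -0.15 and -0.16 at 4 wks, with intervals that included 0 at each time. Gbp3, a guanylate-binding protein, stood at -0.23 at 4 wks (adjusted p = 0.179), Gbp2 at 0.02 and Tgtp1 at 0.23 (adjusted p = 0.146). Gbp2 and Gbp3 stood at -0.07 and -0.18 at 24 hrs post-5-day stressor. In AggE, 4 of the 6, with Iigp1 counted, were higher at 24 hrs after either regimen (Tgtp1 undetected after the 5-day regimen), 5 at 1.5 wks and 2 at 4 wks.

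The chemokines Cxcl9 and Cxcl10, which draw activated T cells through CXCR3, were dim in liver. Cxcl10 read -0.25, 0.04, 0.04 and -0.24 in Ctrl and 0.28, 0.23, 0.22, -0.01 and 0.07 in AggE at 24 hrs after the 5-day regimen, where 1 AggE liver fell among the Ctrl livers. It was detected on 1 AggE array and no Ctrl array, with mean ratios of 0.16 and -0.10 (adjusted p = 0.175). After the 10-day regimen it was -0.19, -0.17, -0.25 and -0.08 in Ctrl and -0.25, -0.21, -0.11, -0.38 and -0.20 in AggE, overlapping, with a difference of -0.05. At 1.5 wks, undetected in either group, it was -0.05, -0.10, -0.23 and -0.40 against 0.01, -0.51, -0.01, -0.13 and -0.09. At 4 wks Ctrl ran from -0.68 through -0.34 to -0.06 and AggE from -0.58 through -0.33 to -0.20, with a difference of 0.01 (-0.17 to 0.19). Cxcl9 was detected on all 12 arrays at 4 wks and differed by 0.11 (adjusted p = 0.672).

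H2-K1, a class I heavy chain with the brightest probe of the 6 class I genes among the 36, gave opposite answers from its 3 probes at 4 wks, all of them detected on all 39 arrays. On the brightest probe Ctrl ran from 1.69 through 2.02 to 2.31 and AggE from 1.54 through 1.60 to 1.80, a difference of -0.36 (interval -0.68 to -0.03, adjusted p = 0.195). On the second probe Ctrl ran from -0.05 through 0.37 to 0.90 and AggE from 0.64 through 1.44 to 1.53, higher in AggE by 0.86 (SE 0.23, adjusted p = 0.0319). On the third Ctrl ran from -0.12 through 0.29 to 1.19 and AggE from 0.46 through 1.33 to 1.55, higher by 0.79 (SE 0.22, adjusted p = 0.0416). On the third probe 2 AggE livers lay within the Ctrl range, the ranges of the second overlapped as well, and the mean over the 3 probes gave 0.43. The second probe no longer passed without AggE replicate 2, 3 or 5 or Ctrl replicate 3, 4 or 5 (0.78 to 0.93, adjusted p 0.0572 to 0.0938), nor in 4 of 15 processing alternatives: Cy-5 alone, only the 4-wk groups, and slide as a random (0.78, adjusted p = 0.176) or fixed block (0.73, adjusted p = 0.285). The third no longer passed without any of 9 of the 12 livers (0.68 to 0.85), nor in 11 of the 15 alternatives (0.49 to 1.18, adjusted p 0.0503 to 0.460), slide as a random or fixed block and the replicate block among them. On the slide with both groups the AggE liver stood at 1.54, 0.64 and 0.46 on the 3 probes and the Ctrl mean at 1.93, 0.24 and 0.11. Class I genes are close copies of each other, and which of them each probe takes up was not tested.

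At the other times the brightest H2-K1 probe did not pass (adjusted p 0.997, 1 and 1). It was 1.95, 2.42, 1.84 and 2.29 in Ctrl and 1.93, 2.12, 2.43, 2.34 and 1.83 in AggE at 24 hrs post-5-day stressor, and 1.50, 2.14, 1.83 and 1.88 against 2.20, 2.06, 2.06, 1.80 and 2.03 after the 10-day regimen. At 1.5 wks it was 1.76, 2.40, 0.92 and 1.61 against 1.72, 1.58, 1.94, 2.00 and 1.33. All 3 pairs of ranges overlapped, and the differences were 0.00, 0.19 and 0.04.

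B2m, the light chain that all class I molecules need, was higher in AggE livers at both late times by estimate, without passing the adjusted p. At 4 wks Ctrl ran from -0.42 through -0.23 to 0.11 and AggE from 0.03 through 0.23 to 0.40, overlapping at a single Ctrl liver, and the difference was 0.42 (interval 0.11 to 0.72, adjusted p = 0.106). At 1.5 wks the ratios were -0.46, -0.61, -1.24 and -1.12 in Ctrl and -0.19, -1.23, -0.51, -0.07 and -0.43 in AggE, a difference of 0.37 (adjusted p = 1). Its second probe gave 0.27 at 4 wks and 0.25 at 1.5 wks, the same direction. On the slides with both groups the AggE liver was above the Ctrl mean by 0.37 at 4 wks and by 0.34 at 1.5 wks. At 24 hrs B2m was 0.27, 0.46, 0.51 and 0.39 in Ctrl and 0.51, 0.49, 0.81, 0.85 and 0.03 in AggE after the 5-day regimen. After the 10-day regimen it was 0.60, 0.64, 0.79 and 0.39 in Ctrl and 0.78, 0.56, 0.34, 0.77 and 0.43 in AggE, and the differences of 0.13 and -0.03 had intervals that included 0.

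**Figure D5:**
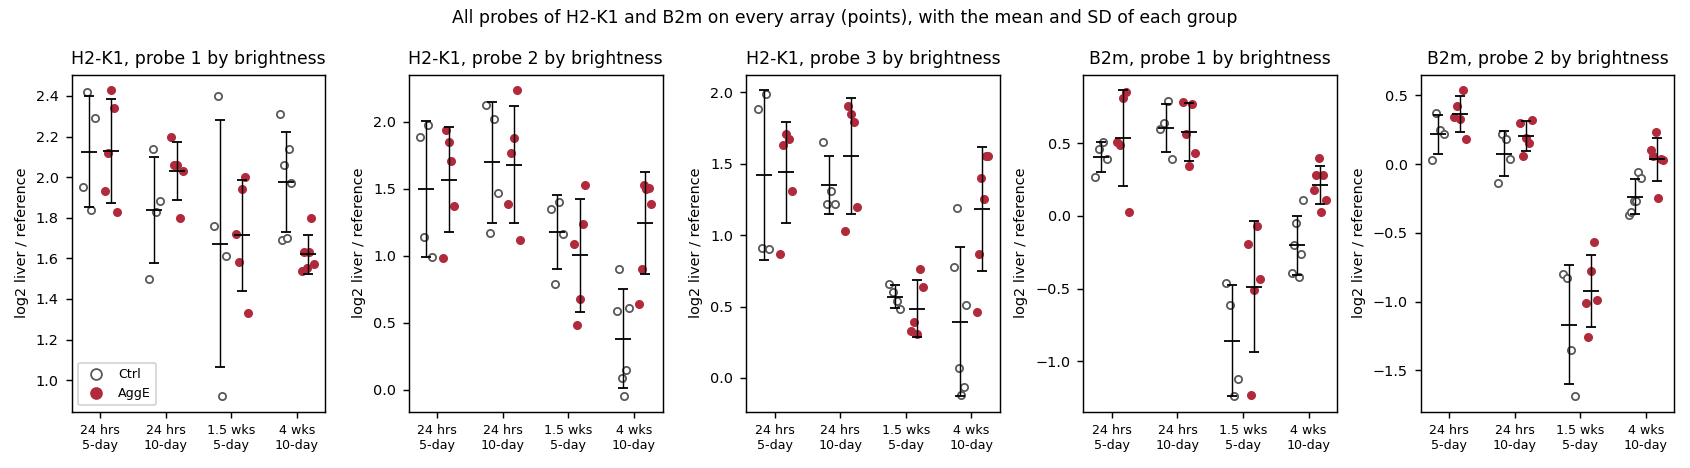
Log2 ratio on every array (points; Ctrl open, AggE filled) with group means and SD for the 3 probes of H2-K1 and the 2 of B2m, in order of brightness. At 4 wks the brightest H2-K1 probe is lower in AggE while the other 2 are higher, and both B2m probes are higher.

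Tapbp, which encodes tapasin of the peptide-loading complex, also split between its probes. Its brightest probe at 24 hrs after the 5-day regimen read -1.47, -0.52, -0.69 and -0.21 in Ctrl and -0.41, -0.37, -0.07, -0.04 and 0.06 in AggE, higher by 0.56 (adjusted p = 0.278) with the ranges overlapping. Its second probe read -0.05, -0.22, -0.06 and 0.01 in Ctrl and -0.30, -0.29, -0.33, -0.48 and -0.50 in AggE, with no overlap and the opposite direction. That probe was detected on 3 Ctrl arrays and no AggE array, with mean ratios of -0.08 and -0.38 (adjusted p = 0.0211), a call lost without Ctrl replicate 1, 3 or 4 (adjusted p 0.0533 to 0.0813) and in 7 of 14 processing alternatives, among them without normalization between arrays (-0.12, adjusted p = 0.666). H2-D1, the other class I heavy chain among the 36 genes, differed by -0.01, 0.29, -0.08 and 0.22 over the 4 comparisons, and Tap2, a subunit of the peptide transporter, by -0.16, 0.14, -0.10 and -0.17. Tap1, the other subunit, was detected only at 4 wks, on 3 AggE arrays and 1 Ctrl array, where it differed by 0.05. Over the 16 genes with more than 1 probe, the 20 further probes had the sign of the brightest in 9, 16, 11 and 11 cases in the order of the comparisons.

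All 4 class II genes were higher in AggE livers after the 10-day regimen, at 24 hrs and at 4 wks, with no adjusted p under 0.05. Cd74, the invariant chain and the brightest of them, was -0.11, -0.61, -0.41 and 0.19 in Ctrl and 0.06, 0.36, -0.37, -0.08 and -0.27 in AggE at 24 hrs post-10-day stressor, a difference of 0.17 (interval -0.29 to 0.63). At 4 wks Ctrl ran from -0.86 through -0.16 to 0.78 and AggE from -0.75 through 0.11 to 0.49, within the Ctrl range, a difference of 0.21 (-0.18 to 0.61). H2-Ab1, a class II beta chain, differed by 0.31 and 0.45, H2-Aa, the alpha chain, by 0.06 and 0.18, and Ciita, the master regulator of class II genes, by 0.07 and 0.19. On the 4-wk slide with both groups the differences were -0.25 for Cd74, 0.00 for H2-Ab1, 0.73 for H2-Aa and 0.15 for Ciita.

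After the 5-day regimen class II genes were less uniform. Cd74 was -0.35, -0.52, -0.68 and -0.76 in Ctrl and -0.58, -0.86, -0.80, -0.38 and -0.32 in AggE at 24 hrs, and -0.08, -0.10, 0.10 and -0.09 against -0.14, 0.40, 0.04, -0.13 and 0.25 at 1.5 wks. Its ranges overlapped at both times. H2-Ab1 stood at -0.40 and 0.40, with intervals of -1.29 to 0.48 and -0.48 to 1.29. H2-Aa was detected on 2 Ctrl arrays and no AggE array at 24 hrs. Its group means gave a bound of 1.16-fold higher in Ctrl, but the interval of the difference, -0.62 to 0.10, included 0 (limma adjusted p = 0.493). Its second probe was detected in neither group.

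The 2 sets are given side by side, with no test between them. In AggE at 4 wks 7 of 26 interferon-induced genes were higher (median -0.13) and 7 of 10 MHC genes were higher (median 0.19). The MHC count came from class II, with 4 of 4 higher (median 0.20), whereas 3 of 6 class I genes were higher (median -0.06). Over all probes 54% were higher (median 0.01), and over probes detected on all arrays 36.1% (median -0.12). The MHC median was -0.16, with 3 of 10 genes higher, with slide as a fixed block, and 0.05 without normalization between arrays, while the interferon-induced median was -0.17 and -0.11. At 24 hrs post-5-day stressor 15 of 26 and 4 of 10 were higher (medians 0.03 and -0.01), beside 50.9% of all probes. At 24 hrs post-10-day stressor 17 of 26 and 8 of 10 were higher (medians 0.05 and 0.16), beside 48.2%. At 1.5 wks 12 of 26 and 5 of 10 were higher (medians -0.02 and 0.01), beside 47.4%.

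The Ctrl groups differed from each other by as much as AggE differed from Ctrl. For 24 of 36 genes (66.7%; all probes 66.1%) the range of the 4 Ctrl means was larger than the largest AggE difference. For Iigp1 the Ctrl means spanned 1.54, for H2-Ab1 1.51 and for B2m 1.46, and in all 3 the lowest Ctrl mean was that at 1.5 wks. Within groups the median SD of the 36 genes was 0.21 (all probes 0.16), with H2-Ab1 at 0.68, Iigp1 at 0.56 and Tapbp at 0.42 the most variable.

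The change in AggE was next compared between regimens and times. Between the regimens at 24 hrs 0 of 36 genes passed the adjusted p in limma, beside 0.027% of probes, and 4 passed the unadjusted p (Cxcl10, Ifit2, Rsad2 and Stat2), beside 6.7%. Between 24 hrs and 1.5 wks after the 5-day regimen 0 passed, beside 0.0695%, and Ifit2 passed unadjusted, beside 7.71%. Between 24 hrs and 4 wks of rest from the 10-day regimen 0 passed, beside 0.0502%, and 6 passed unadjusted, beside 8.81%. In those 6 the AggE minus Ctrl difference was the more positive at 24 hrs and was below 0 at 4 wks, with a gap of 1.29 for Iigp1, 0.55 for H2-K1, 0.46 for Irf1, 0.35 for Oas2 and 0.29 for Usp18. The gap is not given for Ifi44, which was detected on no array at 24 hrs. The other 2 H2-K1 probes went the opposite way, from -0.02 and 0.21 at 24 hrs to 0.86 and 0.79 at 4 wks. Differences between times also cross the 2 scan days, since all 24-hr arrays were scanned on the first and all 4-wk arrays on the second.

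Of 67 other genes of these pathways (receptors, kinases, proteasome subunits and further effectors among them), 62 were on the array. Ifitm2, a membrane protein that restricts viral entry, was higher in AggE at 24 hrs post-5-day stressor, at -0.25 to 0.77 against -0.51 to -0.14 in Ctrl, a difference of 0.61 (SE 0.15, adjusted p = 0.0190). Gbp4 also passed there (adjusted p = 0.0448) but was detected in neither group. These 2 of 62 stood beside 3.1% of all probes, and at the unadjusted p 6 were higher and 5 lower, beside 17.3%. In limma 0 of 62 passed after the 10-day regimen with 24 hrs of rest, beside 0.0734%, and 3 were higher at the unadjusted p, beside 2.83%. At 1.5 wks 0 of 62 passed in limma, as did 0% of probes, and 1 was lower at the unadjusted p, beside 2.43%. At 4 wks Psme2, a subunit of the proteasome activator induced by interferon-gamma, was lower in AggE, at -0.61 to -0.04 against -0.42 to 0.37, a difference of -0.44 (SE 0.13, adjusted p = 0.0429), the single call beside 3.51% of all probes. Counting it, 11 of 62 were lower and 4 higher at the unadjusted p, beside 20.6% of all probes in either direction. The medians of the 62 were 0.03, 0.05, -0.01 and -0.01. The calls of Ifitm2, Gbp4 and Psme2 were not rerun with slide as a block or under other processing.

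Markers of liver cell types were read in the same comparisons. The summed ratio of 6 Kupffer cell and macrophage markers ran from 36.3 through 50.1 to 74.9 in Ctrl and from 18.9 through 30 to 45.6 in AggE at 4 wks, beside the lower estimates of Iigp1 and the transcription factors and the higher estimates of all 4 class II genes, and Cd5l (-1.12, adjusted p = 0.0593) and Clec4f (-0.81, adjusted p = 0.145) were the markers past the unadjusted p. These had the highest ratios of the 6 at 4 wks and so the most weight in the sum, and 2 of the 6, Vsig4 (0.26) and Csf1r (0.08), were higher in AggE by estimate. At 24 hrs post-10-day stressor the sum was 23.8 to 47.8 in Ctrl and 52.3 to 57.2 in AggE, beside the higher class II estimates. The sums did not overlap, as did 1.71% of single probes there, and no slide held both groups. All 6 markers were higher, 3 past the unadjusted p and 0 past the adjusted p in limma. At 1.5 wks, where Iigp1, H2-Ab1 and B2m were lowest in Ctrl, it was 10.1 to 45.3 in Ctrl and 13 to 46.4 in AggE. The sum of 6 dendritic cell markers was 6.43 to 9.84 in Ctrl and 7.41 to 8.52 in AggE at 4 wks. Of these 6, 4 were higher in AggE and the others lower, with a median difference of 0.02. Zbtb46 was the single call (0.50, limma adjusted p = 0.0187), and Siglech and Cd209a were detected on no array. At 24 hrs post-5-day stressor, with sums of 5.83 to 6.25 in Ctrl and 6.11 to 6.66 in AggE, Itgax passed (adjusted p = 0.0487) but was detected in neither group. At 4 wks the sum of 6 T and NK cell markers was 6.73 to 8.14 in Ctrl and 7.78 to 8.22 in AggE. Of these 6, 5 were higher, with a median difference of 0.07, and Cd4 was the single call (0.19, limma adjusted p = 0.0396). The sum of 4 B cell markers at 4 wks was 2.76 to 4.29 in Ctrl and 2.72 to 3.47 in AggE. By estimate 2 of the 4 were higher in AggE, while Cd79b (-0.33, adjusted p = 0.129) and Ms4a1 (-0.39, adjusted p = 0.136) were lower at the unadjusted p. Of 5 hepatocyte markers 0 were higher at 4 wks (median -0.24), their sum was 199 to 366 in Ctrl and 136 to 261 in AggE, and Apoa1 was past the unadjusted p (-0.61, adjusted p = 0.238). The sum of 3 neutrophil markers at 4 wks ran from 2.65 to 10.5 in Ctrl and from 2.83 to 4.03 in AggE, and that of 4 sinusoidal endothelium markers had medians of 11.2 and 10.9, with overlapping ranges in both. The part of these cell types in the differences was not tested. Marker calls were not rerun with slide as a block or under other processing.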

How the data were processed

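The deposited scanner files hold Cy-5 and Cy-3 intensities of 39 two-color mouse arrays, extracted by the authors with Agilent Feature Extraction (11.5.1.1 in the file headers; the methods name another version). The series table holds log10 ratios deposited by the authors, already background-corrected and dye-normalized, and served as an alternative. Median spot intensities were background-corrected with normexp (offset 50), normalized by loess within and by quantiles between arrays, as log2 ratios. Control spots and outlier spots were left out, which removed 2 values of the 36 genes, and spots of 1 probe were averaged. The 25903 RefSeq probes were fitted together in limma 3.58.1 (R 4.3.3), with 1 mean per group and Benjamini-Hochberg adjustment over all probes. Scripts were tested on simulated data.

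The brightest probe stood for a gene. Values of every array (lowest, median and highest in groups over 5) are given for genes called in any comparison and for the brightest gene of each role. Tapbp, B2m and the further probes of H2-K1 were added after their values were seen. The genes and lists were chosen with earlier results of these data known. The number of arrays limits the precision, and p-values measure the spread between arrays. Alternatives covered background correction, normalization, probe filters, probe averaging, array weights, slide, scan day, replicate number and leaving out each array. The fold changes and p-values the study states were not used.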

Additional observations from a re-analysis of the deposited data

Results flagged for a closer look

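Single livers stood apart from their group in 7 of the 64 sets of 4 to 6 livers examined for the 8 genes with values on every array (Dixon's test at its 95% critical value, which chance exceeds in about 1 of 20 sets). Ifi44 was -1.34 in AggE replicate 5 at 24 hrs post-5-day stressor, against -0.81 in the next liver, on arrays where the probe was not detected. Oas2 was -1.08 in AggE replicate 1 at 4 wks, against -0.57, and that liver shared its slide with 3 Ctrl livers. In the same liver Cd74 was -0.75, against 0.06 in the next. H2-K1 was 1.80 on its brightest probe in AggE replicate 5 at 4 wks, against 1.63. Irf1 was 0.29 in AggE replicate 4 at 24 hrs post-5-day stressor, against -0.23. At 1.5 wks Cxcl10 was -0.51 in AggE replicate 2, against -0.13, and Cd74 was 0.10 in Ctrl replicate 3, against -0.08.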

How the results depend on the processing

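At 4 wks the number of genes passing the adjusted p, 2 here, was 0 without background correction, with an offset of 16, with the signals processed by Feature Extraction, with Cy-5 alone, with the series table, with only the groups of the comparison and with slide as a random block. It was 1 with the mean over the gene's probes (Ifi44), with slide as a fixed block (Oas2, -0.74) and with the replicate block (Ifi44), and 5 with array weights (B2m, Gbp3, Ifi44, Oas2, Oasl1). It was 5 without normalization between arrays and with Aquantile, which leaves ratios unchanged (H2-K1, Irf8, Irf9, Oas1a, Oasl1), where Ifi44 turned to 0.11. Leaving out each array gave 0 to 4, with 4 without Ctrl replicate 2 (Ifi44, Iigp1, Oas2, Oasl1). At 24 hrs post-5-day stressor the number, 0 here, was 1 without background correction and with the series table (H2-Aa in both), 1 with an offset of 16 (Rsad2), 2 with the signals processed by Feature Extraction (H2-Aa, Iigp1), and 0 to 1 on leaving out each array (Ifit2 without AggE replicate 3). For the difference between 24 hrs and 1.5 wks it was 1 with the signals processed by Feature Extraction (H2-Aa). The other 4 comparisons stayed at 0 under all alternatives run. The cause was not tested.

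Replicate numbers are only numbers here: residuals of arrays with the same number correlated at -0.448 to 0.502. With the replicate number as a block Oas2 had an adjusted p of 0.0525 and Ifi44 still passed. Detection limits the dim genes, which have bounds or no fold in the earlier comparisons.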
